A study of Mus musculus with 2 samples.

Results

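Wfdc18, Bpifa1, Olfm4, Lpo, S100a8, S100a9, Pcp4 and Rarres1 are 8 genes that thymic epithelial cells (TECs) transcribe although their protein products are best known from other tissues. They were 8 of the 32285 genes listed in the data. The set was picked from these data for a high share of the counted RNA or for large ratios between libraries or cell groups, so the levels and ratios below describe the genes and test nothing. Wfdc18 led the set, with 198922 of the RNA molecules counted over both libraries, of which the 8 genes together held 125453 in the control and 191919 in the irradiated library.

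Medullary TECs (mTECs) make small amounts of proteins that otherwise belong to gut, skin, airway, gland, nerve and other tissues. Developing T cells that recognise these tissue-specific antigens (TSAs) strongly are deleted or turned into regulatory T cells. The nuclear protein Aire drives transcription of many TSAs in mature mTECs, and mTECs that have passed the Aire stage can take on features of peripheral cell types, as keratinocyte, tuft or enterocyte mimetic cells do. Each TSA is commonly found in a small share of mTECs at a time, which is why the share of positive cells and the share of molecules in the highest cells are given for every gene.

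The genes belong to several protein families. Wfdc18, once named Expi, is a secreted protein with a whey acidic protein fold, a fold of proteinase inhibitors. Bpifa1 is a secreted lipid-binding defence protein of the airway. Olfm4 is a secreted glycoprotein of gut epithelium and neutrophils, and Lpo is lactoperoxidase, the antibacterial heme peroxidase of milk and saliva. S100a8 and S100a9 are calcium-binding proteins that pair as calprotectin in neutrophils and in inflamed skin. They lack a classical signal peptide. Pcp4 is a small calmodulin-binding protein inside Purkinje neurons, and Rarres1 is a membrane protein related to the carboxypeptidase inhibitor latexin. "Secreted" is therefore apt for Wfdc18, Bpifa1, Olfm4 and Lpo, but not for Pcp4 or Rarres1.

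The study asked how TECs differ 15 days after a sublethal dose of radiation. TECs of female C57BL/6 mice were sorted as EpCAM+ cells lacking the blood cell marker CD45 and the red cell marker TER119. The irradiated mice had received 5.5 Gy of γ-rays at 7 weeks of age, and the control mice were not irradiated. Each condition was 1 droplet single-cell library made from a pool of 3 mice, so the cells of 1 mouse cannot be told from those of another and no difference between conditions has a replicate check. The deposit gives 9 weeks as the age of the mice in one field and 4 weeks in another.

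The assignment of libraries to conditions used here is the reverse of the deposit's sample titles and treatment labels. The deposit also records day 15 after irradiation for the library used here as the control. The library titled as irradiated gave 3233 cells after the study's filter and the one titled as control gave 5070, which are the study's cell numbers for control and irradiated mice, respectively, and the file names follow the study too. Every direction between the libraries given below would reverse under the deposit's titles and labels. The control library held 51586327 unique molecular identifiers (UMIs, each standing for 1 captured RNA molecule) in kept cells, with a median of 13412 per cell, and the irradiated library held 75542631, with a median of 13003.5. The libraries shared 17 barcodes, of which 5 were kept in both. The 8 genes together held 0.243% of the control and 0.254% of the irradiated UMIs.

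The genes lie on 5 chromosomes, and several stand beside relatives. In the GRCm38 genome, Wfdc18 spans 83709015 to 83711348 on chromosome 11, plus strand, with Wfdc17 2746 bases before it and Wfdc21 35591 bases after it. Lpo lies at 87806428 to 87828289 on chromosome 11, minus strand, between the peroxidase genes Mpo, 2014 bases away, and Epx, 35710 bases away. Bpifa1 lies at 154142880 to 154149219 on chromosome 2, plus strand, among Bpifa3, Bpifa5 and Bpifb1. S100a8, at 90668978 to 90670035 on the plus strand, and S100a9, at 90692632 to 90695721 on the minus strand, are 22596 bases apart on chromosome 3. Rarres1 lies at 67478972 to 67515523 on chromosome 3, minus strand, 15045 bases from its relative Lxn. Olfm4 lies at 79984081 to 80023139 on chromosome 14 and Pcp4 at 96467606 to 96525793 on chromosome 16, both on the plus strand.

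The letters just before the transcription start differ among the genes. The RefSeq table of GRCm38.p6 held a promoter for each of the 8 genes. The TATA box, searched as TATAAA on both strands in the 250 bases before the start, was found for Wfdc18, Bpifa1 and S100a8, each time on the gene's strand between 31 and 24 bases before the start, and for none of the other 5 genes. Of all 32851 promoters in the table, 12.4% held it in that window. The 3 matches are printed with S100a9, the partner of S100a8, and with Rarres1, which had 14 CG pairs in the 250 bases against a median of 6 over all promoters. Each line runs 5′ to 3′, with the match in capitals. The lines hold the 100 bases before the start, except for S100a8, where an exon of the GENCODE annotation reaches into that stretch and bases 40 to 11 before the start are shown.
Wfdc18, chr11:83708904-83709003, plus strand: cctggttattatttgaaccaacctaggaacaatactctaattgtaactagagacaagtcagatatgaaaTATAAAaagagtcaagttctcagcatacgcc
Bpifa1, chr2:154142780-154142879, plus strand: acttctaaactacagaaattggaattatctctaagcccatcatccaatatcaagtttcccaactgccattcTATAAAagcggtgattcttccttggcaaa
S100a8, chr3:90669031-90669060, plus strand: agctttcctcTATAAAagcagctgacactt
S100a9, chr3:90695722-90695821, minus strand: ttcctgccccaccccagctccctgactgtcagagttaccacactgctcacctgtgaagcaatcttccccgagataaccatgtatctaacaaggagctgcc
Rarres1, chr3:67515524-67515623, minus strand: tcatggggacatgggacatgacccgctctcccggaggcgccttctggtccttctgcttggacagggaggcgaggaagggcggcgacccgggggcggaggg

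Further motifs were searched in the same window. The AP-1 motif TGANTCA was found for Bpifa1 alone and in 6.75% of all promoters. The C/EBP motif TTGCNNAA was found for S100a9 alone, from base 236 before the start, and in 9.56% of all promoters. The NF-kB motif was found for Olfm4 alone, in 2 overlapping matches, and in 4.11% of all promoters. These matches describe letters and not bound sites.

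Levels are given as UMIs of the gene per 10000 UMIs of all genes, summed over cells, with exact Poisson 95% intervals in brackets. Counts from the 3′ end of RNA do not scale with transcript length, so these levels can be set beside each other. All intervals cover counting error only, not differences between mice or libraries, and those of levels also leave out the spread between cells. Over all kept cells, Wfdc18 was at 14.8 (14.7 to 14.9) in the control and 16.2 (16.1 to 16.3) in the irradiated library. It ranked 83rd of all genes by UMIs over both libraries. S100a8 followed at 2.88 and 2.66, Bpifa1 at 1.64 and 1.60, Olfm4 at 1.43 and 1.36, and Lpo at 1.15 and 1.29. Pcp4 was at 1.02 and 0.706, S100a9 at 0.847 and 0.991, and Rarres1 at 0.547 and 0.568. The order of the 8 genes was the same in both libraries except for Pcp4 and S100a9, which changed places.

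The share of cells with at least 1 UMI did not follow the level. It was taken after each cell had been thinned at random to 4000 UMIs, so that deep and shallow cells count alike, which left out 5 irradiated cells and no control cell. Wfdc18 was found in 45.0% of control and 45.5% of irradiated cells, Lpo in 23.8% and 28.5%, and Olfm4 in 19.6% and 20.2%. S100a8 was found in 10.4% and 10.9%, S100a9 in 5.82% and 6.24%, Pcp4 in 6.65% and 5.11%, and Rarres1 in 5.88% and 6.04%. Bpifa1, behind Wfdc18 and S100a8 by level in both libraries, was found in the fewest cells, 3.71% (3.09 to 4.42, exact Clopper-Pearson 95%) of control and 2.53% (2.11 to 2.998) of irradiated cells. Without thinning, the shares ran from 5.66% for Bpifa1 to 59.5% for Wfdc18 in the control and from 4.16% to 59.2% in the irradiated library.

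Bpifa1 was the most concentrated of the 8 genes. The highest 1% of cells, 33 control and 51 irradiated cells ranked by that gene, held 92.1% of Bpifa1 UMIs in the control and 95.8% in the irradiated library. In each library 3 cells held 50% of all Bpifa1 UMIs. The share in the highest 1% was 60.0% and 67.6% for Pcp4, 54.4% and 52.8% for Rarres1, 54.0% and 52.1% for S100a9, and 38.2% and 39.4% for S100a8. It was 20.9% and 16.7% for Wfdc18, 18.8% and 16.3% for Olfm4, and 11.8% and 9.10% for Lpo. Over the 12595 genes with at least 500 UMIs the median share was 12.6% in the control and 12.3% in the irradiated library. Lpo was above 46.1% of these genes in the control and 31.2% in the irradiated library, and the other 7 genes were above the median in both.

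**Figure D1:**
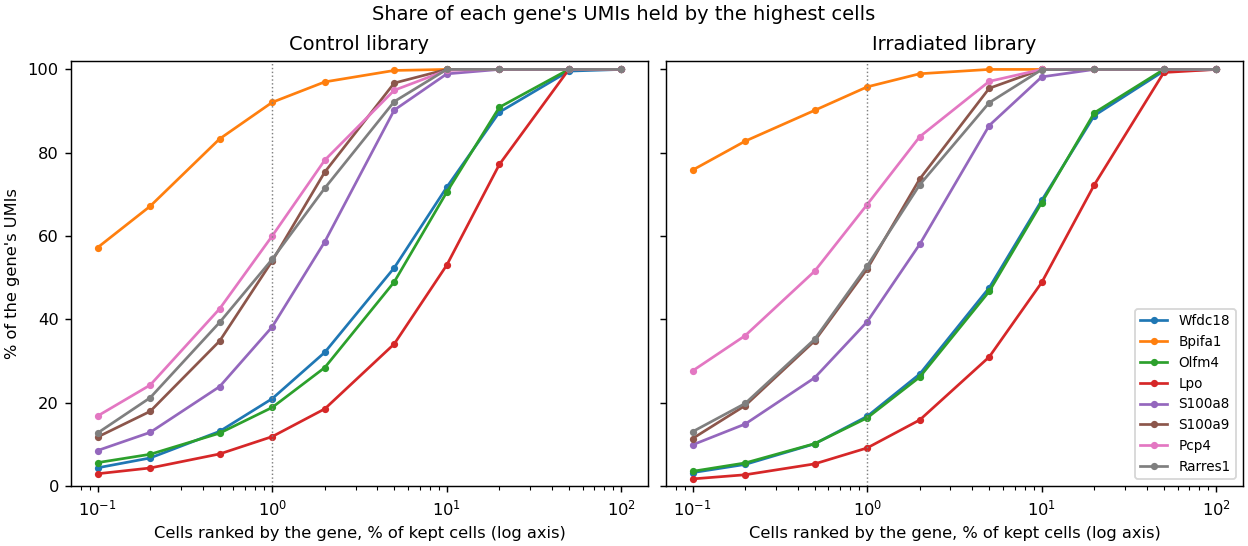
Cumulative share of each gene's UMIs (vertical axis, percent) against the share of kept cells, ranked by that gene (horizontal axis, percent, log scale), in the control and irradiated library. The dotted line marks 1% of cells, where the curves run from Lpo (11.8% and 9.10%) to Bpifa1 (92.1% and 95.8%).

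To place the genes among epithelial cell types, the cells of both libraries were clustered as the study had done, but without the 8 genes, so that their levels do not define the clusters. This gave 14 clusters, of which the 12 with at least 50 cells, R0 to R11, are described. Fixed marker lists named R2 enterocyte mimetic-like, R4 dividing (TA-mTEC-like), R7 cortical (cTEC-like), R9 tuft-like and R10 keratinocyte mimetic-like. R1 and R8 had the most Aire, 11.2 and 11.3 UMIs per 10000, and R0 and R6 the most Ccl21a, 119.6 and 109, while stress genes such as Fos and Atf3 led R6. R5 was led by Matn1 and contained both Ccl21a (49.5) and Aire (1.44), R3 was led by Prss23 and Prelp, and R11 had both the cortical gene Prss16 (61.3) and thymocyte genes such as Rag1. R0, R1, R3, R5, R6 and R8 stay unnamed because none of their 10 leading genes was a listed marker. R2 also contained Aire, at 4.80, near the 5.75 of R4. The 8 listed genes of Aire+ mTECs were at 17.4 in the control and 19.5 in the irradiated cells of R2. Its label should therefore not be read as enterocyte mimetic cells alone.

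Wfdc18 was found in most mTEC clusters, at low levels in those richest in Aire. Its level was 50.5 in R5 (50.1 to 50.9), 38.6 in R6, 32.7 in tuft-like R9, 30.3 in keratinocyte mimetic-like R10 and 25.5 in R0. It was 13.2 in enterocyte mimetic-like R2, 12.5 in dividing R4 and 6.13 in cTEC-like R7. In the Aire-high clusters R8 and R1 it was 4.05 and 2.74, and in R3 and R11 it was 0.944 and 0.686, and the highest cluster was 73.7-fold above the lowest. No 2 clusters next to each other in this order, with both libraries summed, had overlapping intervals of counting error. The order differed by library. In the control R9 was at 24.7, below R10 (31.5) and R0 (25.4), and in the irradiated library R9 was at 43.3. In R9, 9 control and 12 irradiated cells held 50% of the Wfdc18 UMIs. After thinning, 87.4% of control and 84.6% of irradiated cells of R5 had Wfdc18, against 23.4% and 20.3% of R1.

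Most Bpifa1 UMIs lay in 1 cluster, but most cells with Bpifa1 lay outside it. Keratinocyte mimetic-like R10, with 95 cells in each library, held 78.4% of its UMIs, at a level of 62.4 (61.5 to 63.4). R2 was at 1.72 and R1 at 0.764, while cTEC-like R7 had a single Bpifa1 UMI in 507 cells. Even in R10, Bpifa1 was found in 25.3% of control and 26.3% of irradiated cells after thinning. The shares were 8.43% and 6.95% in R2 and 7.30% and 5.87% in R1. Of the 370 cells with 1 to 99 Bpifa1 UMIs before thinning, 35 lay in R10. The 17 R10 cells with at least 100 held 74.2% of all Bpifa1 UMIs. Without the 5 highest cells of each library, R10 was at 10.1 in the control and 9.14 in the irradiated library.

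Olfm4 and Lpo were high in dividing cells and in an Aire-high cluster. Olfm4 was at 4.04 (3.91 to 4.18) in Aire-high R8, 3.04 in dividing R4, 1.95 in R1 and 1.48 in R2, and between 0.0181 and 0.0543 in R0, R3, R6, R7 and R11. Lpo was at 2.15 in R5, 2.15 in R8 and 2.06 in R4, values whose intervals overlap, then at 1.55 in R1 and 1.24 in R2. Unlike Olfm4, Lpo was also found in the Ccl21a-high clusters R0 (0.563) and R6 (0.576). Its level in cTEC-like R7 was 0.548, with an interval that overlaps those of R0 and R6. The part of free RNA in these levels was not tested.

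S100a8, S100a9, Pcp4 and Rarres1 all had their highest level in R1, the Aire-high cluster led by Calca, Cpne4 and Serpinb12. R1 was the highest cluster of many other genes too, such as Slpi, Wap, Olfm1 and Myoc. A peak there is therefore not particular to these genes, and the share of all genes that peak in R1 is not given. S100a8 was at 12.4 (12.2 to 12.5) there against 1.66 in R2, which came second. S100a9 was at 4.36 (4.28 to 4.44) in R1 against 0.859 in R10, Pcp4 at 3.18 (3.11 to 3.25) against 1.39 in R2, and Rarres1 at 2.37 (2.31 to 2.43) against 0.771 in R2. R1 held 86.6% of S100a8, 89.9% of S100a9, 73.3% of Pcp4 and 81.4% of Rarres1 UMIs. In R8, which had as much Aire as R1, these genes were far lower, at 1.00, 0.219, 0.132 and 0.104. In cTEC-like R7, a background for free RNA, the share of cells with a UMI after thinning was at most 1.99% for each of these 4 genes in either library, against 19.1% to 48.0% in R1. The same share in R7 was far from 0 for Wfdc18, at 23.2% and 27.2%, close to its 23.4% and 20.3% in R1, and for Lpo, at 9.93% and 14.04%. In R3 the share was 7.82% and 9.18% for Wfdc18 and 0.734% and 1.21% for Lpo. Single R7 cells had up to 166 Wfdc18 UMIs in the control and 278 in the irradiated library. The part of free RNA in the R7 shares of these 2 genes, and in that of Wfdc18 in R1, was not tested. Before thinning, the median depth was 14145 UMIs per cell in R7 and 17046 in R1.

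**Figure D2:**
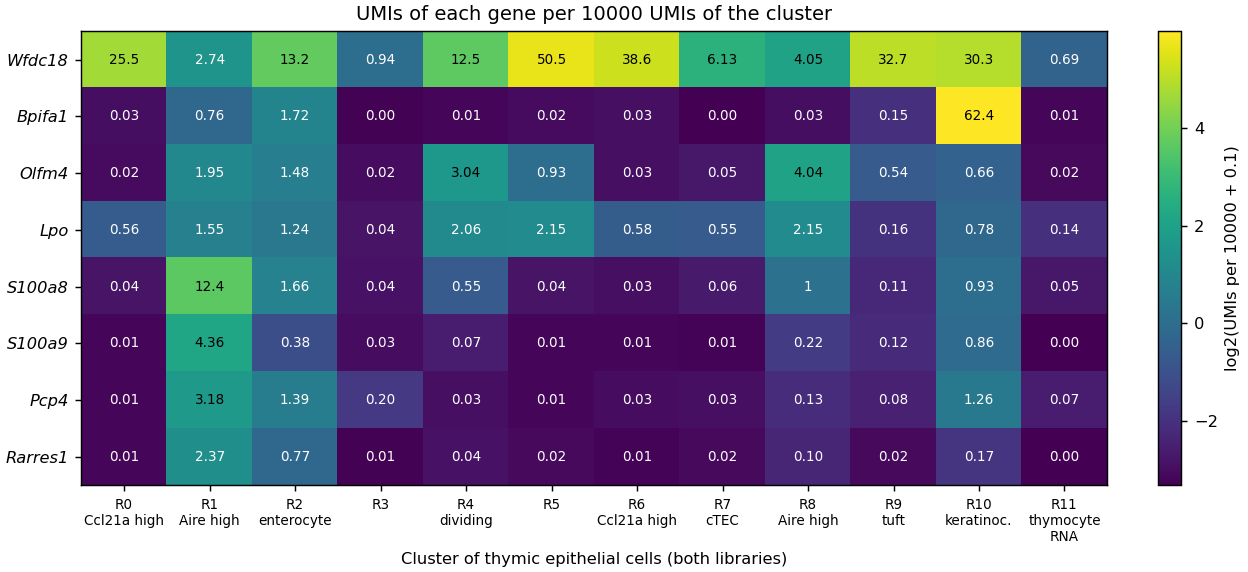
Level of each gene (rows) in each cluster of at least 50 cells (columns), both libraries summed, printed as UMIs per 10000 and coloured by log2 of that value plus 0.1. Wfdc18 is bright in most medullary clusters, Bpifa1 in R10 (62.4), and S100a8, S100a9, Pcp4 and Rarres1 in R1.

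Cells of all clusters were also grouped by Aire UMIs after thinning, into 0, 1 to 2, and 3 or more. Because the clusters differ in Aire, these groups also carry the cluster differences above. Wfdc18 was at 21.1, 12.5 and 3.06 over these groups in the control library and at 23.6, 15.6 and 4.23 in the irradiated library. S100a8 went the other way, at 0.462, 4.03 and 7.43 in the control and 0.431, 3.88 and 7.18 in the irradiated library. Rarres1 had the widest ratio between the end groups, 0.0579, 0.935 and 1.57 in the control and 0.0933, 0.924 and 1.67 in the irradiated library. Olfm4, Lpo, S100a9 and Pcp4 were likewise higher with more Aire in each library, and Bpifa1 was highest in the middle group, at 2.11 and 3.33. The Bpifa1 levels rest on few cells, since 3 cells in each library held 50% of its UMIs before thinning. Bpifa1 was found in 3.01%, 6.08% and 4.44% of the control cells of these groups. The irradiated shares were 1.68%, 3.82% and 4.12%, not highest in the middle group. For Wfdc18, Olfm4, S100a8, S100a9, Pcp4 and Rarres1 the intervals of neighbouring groups did not overlap in either library, whereas for Lpo the upper 2 groups overlapped in both.

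**Figure D3:**
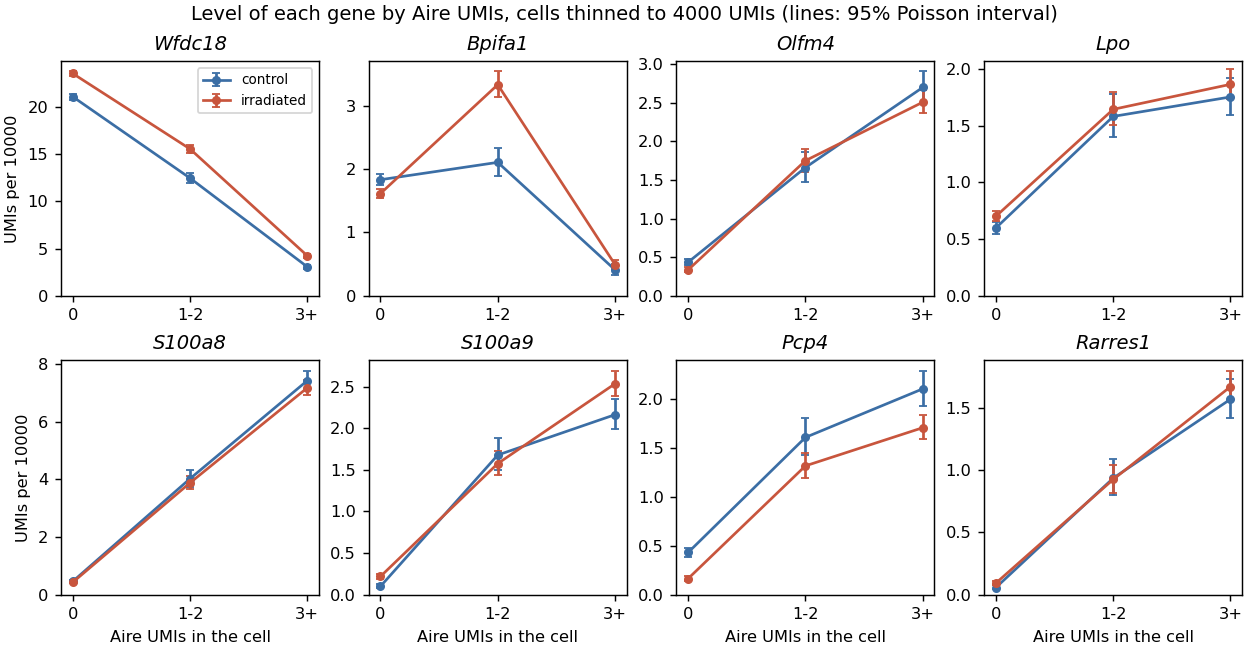
Level of each gene (UMIs per 10000, linear axis from 0) in cells with 0, 1 to 2, or 3 or more Aire UMIs after thinning to 4000 UMIs per cell, with exact Poisson 95% intervals, for the control (blue) and irradiated (red) library. In the control library Wfdc18 is at 21.1 without Aire and 3.06 with 3 or more Aire UMIs, and S100a8 at 0.462 and 7.43.

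Within R1, the 4 genes did not mark the same cells to the same degree. S100a9 was found in 50.6% (44.1 to 57.2) of the control R1 cells with S100a8 and in 8.31% (5.498 to 11.9) of those without it. In the irradiated library the shares were 50.9% (45.8 to 55.9) and 11.8% (8.86 to 15.2). Conversely, 82.1% and 80% of R1 cells with S100a9 also had S100a8. Rarres1 was found in 30.2% of control R1 cells with S100a8 and 21.4% of those without, and Pcp4 in 23.4% and 19.8%, with overlapping intervals in both cases. In irradiated R1 cells, the shares were 27.7% and 21.4% for Rarres1 and 22.1% and 16.2% for Pcp4, again overlapping. S100a9 was thus found several times as often beside S100a8 as without it. Rarres1 and Pcp4 were also more frequent beside S100a8 in both libraries, by less, and the differences were not tested. Over all kept cells, S100a9 was in 41.1% of control and 42.03% of irradiated cells with S100a8.

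The proportion of the S100 partners was not fixed. Over both libraries, S100a8 made up 74.0% (73.5 to 74.4) of the UMIs of the pair in R1 and 81.5% in R2. These shares pool libraries that differed. In R1 the control library had 12810 UMIs of S100a8 and 3984 of S100a9, and the irradiated library had 17454 and 6677. In R2 the UMIs were 1023 and 172 in the control and 1198 and 332 in the irradiated library. No pooled share is given for the other clusters. In keratinocyte mimetic-like R10 the control library had 92 UMIs of S100a8 and 30 of S100a9, and the irradiated library had 148 and 192. In dividing R4 the UMIs were 442 and 7 in the control and 589 and 123 in the irradiated library, and in R8 they were 399 and 131, then 482 and 62. S100a9 outnumbered S100a8 in irradiated R10 but not in control R10. The proportions in R10, R4 and R8 rest on few cells. In R10, 1 control and 3 irradiated cells held 50% of the S100a8 UMIs, and 4 and 2 cells those of S100a9. In control R4, 3 cells held 50% of the S100a8 UMIs, and in control R8, 2 cells held 50% of the S100a9 UMIs. Keratinocytes are a known source of both proteins.

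Because S100a8 and S100a9 are classic neutrophil genes, markers of that cell type were examined in the same cells. In the 775 R1 cells with S100a8, Cxcr2 had 7 UMIs and Csf3r, the G-CSF receptor, had 33, or 0.00491 and 0.0231 per 10000. Ptprc, which encodes CD45, was at 0.0792, and the epithelial gene Epcam was at 5.26. Ly6g was at 0.923 in the R1 cells with S100a8 and 1.08 in the 591 without it, and Aire at 10.9 and 11.6. The other neutrophil genes went both ways. Retnlg was at 0.0757 in the cells with S100a8 and 0.0147 in those without, and the granule protease Prtn3 at 0.243 and 0.0638. Csf3r was at 0.0231 and 0.00981, Mmp8 at 0.0365 and 0.0128, Mmp9 at 0.374 and 0.226, and Mpo at 0.676 and 0.597. Lcn2 was at 1.23 and 1.06, and Ptprc at 0.0792 and 0.0707. All of these were higher in the cells with S100a8, and the following were lower. Camp was at 0.907 and 1.05, Ngp at 0.299 and 0.329, Elane at 0.0182 and 0.0236, Itgam at 0.134 and 0.166, and Cxcr2 at 0.00491 and 0.0147. All 14 listed neutrophil genes had at least 1 UMI in R1, and together they were at 5.52 in the control and 4.41 in the irradiated library. Their part in the S100 levels was not tested. The macrophage gene Lyz2 was at 7.52 in the cells with S100a8 and 6.43 in those without.

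The genes most like each of the 8 over the 12 clusters, by Pearson correlation of log2(UMIs per 10000 + 0.1) among 12595 genes, place them further. They describe 12 points made from the same 2 libraries. For Wfdc18 they were Srgap1, Fam83f and Plekhh1, at r of 0.90, 0.90 and 0.89, the lowest maximum of the 8 genes. For Bpifa1 they were Rhbg, the hair keratin Krt84 and the cytokine Il1f6 (0.99 each). For Olfm4 they were Utf1, the intestinal factor Cdx1 and Rap1gap (0.98 to 0.99), and for Lpo they were Skint10, Pkdcc and Lhpp (0.96 to 0.98). The calcium-binding gene Calb1, Mylk3 and Calca were nearest to S100a8 (0.98 to 0.99), and Cd79a, Oas1h and Srcin1 to S100a9 (0.98 to 0.99). Pcp4 was nearest to Ripply2, Serpinb12 and the trefoil factor Tff2 (each 0.97), and Rarres1 to Iyd, Vgf and Ces1f (0.99 to 1.00). Among the 8 genes themselves, r was 0.94 for S100a8 with S100a9 and with Rarres1, and -0.14 for S100a8 with Wfdc18.

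The 84 cells with the most Wfdc18 had between 290 and 1020 UMIs of it. They were spread over several clusters, with 30 cells in R5 and 14 in R2. The genes with the highest fold over other cells, among those found in at least 25% of the 84, were Wfdc17 (19.5-fold), the cartilage matrix gene Matn1 (7.95), Pglyrp1, a peptidoglycan-binding defence protein (7.23), Cyp2a5 (6.89) and the chemokine Ccl9 (6.73). Wfdc17, next to Wfdc18 on the chromosome, was at 5.37 UMIs per 10000 in these cells and 0.275 in the others. No run of 31 bases of a Wfdc18 transcript was found in a transcript of another gene.

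The Bpifa1-rich cells had transcripts of airway as well as of skin genes. The count of 100 UMIs used to pick them was chosen after seeing the data. In all, 24 cells had at least 100 Bpifa1 UMIs and held 81.4% of them. Of these, 17 lay in R10, 5 in R2 and 2 in R1, with 13 from the control and 11 from the irradiated library. The highest cell by share was an irradiated R10 cell with 1841 Bpifa1 UMIs, 23.0% of its 7989 UMIs, and the highest control cell had 2365, or 12.0%. Among R10 cells, those with at least 100 Bpifa1 UMIs had Cyp2f2, a cytochrome of airway secretory cells, at 16.3 per 10000, against 2.24 in the 138 R10 cells with no Bpifa1. Wfdc2, a secreted relative of Wfdc18, was at 76.4 against 17.9. Krt10, a keratin of differentiated epidermis, was at 3.33 against 14.8, and the skin protease inhibitor Spink5 was at 20.8 and 22.8. The airway secretory gene Scgb1a1 was at 0.0321 in the Bpifa1-rich R10 cells, below the 2.46 in R10 cells without Bpifa1. The 10 listed airway and goblet genes, Cyp2f2 among them, were at 36.6 and 10.5 as a group. Bpifb1, also on that list, was at 0.0641 and 0.107. The listed keratinocyte genes were at 46.9 and 80.3. The Bpifa1-rich R10 cells had a median of 17077 UMIs and those without Bpifa1 12574.

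The highest cells of the other genes, ranked by raw UMIs, mostly fell where the cluster levels were high. Of the 84 highest cells, 79 were in R1 for S100a8, 78 for S100a9, 74 for Rarres1 and 70 for Pcp4. For Olfm4, 31 lay in dividing R4 and 19 in R8, and the mitotic genes Ube2c (6.21-fold) and Ccnb1 (5.502) were among the leading 5. For Lpo, 25 lay in R4 and 18 in R1, although R1 (1.55) was below R5 and R8 (each 2.15) by level. Among the leading genes of the Lpo cells, Ccnb1 (3.80) and Ube2c (3.79) came after Amn (4.39) and Depdc1a (4.03). These Olfm4 and Lpo cells had a median of 26804 and 25702 UMIs, about as many as R4 at 25081. S100a9 (21.5-fold) led the S100a8 cells, followed by Serpinb12 (13.9) and Psca (13.6), and S100a8 (21.9) led the S100a9 cells. Dscam, 65046 bases from Pcp4 on chromosome 16, led the Pcp4 cells at 9.58-fold, with 0.329 against 0.0346 UMIs per 10000. Lgals2 (9.94) and Apoa2 (9.26) led the Rarres1 cells.

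The families of these genes were present at widely different levels. Of 20 listed whey acidic protein genes, 10 had at least 100 UMIs. Wfdc2, with 21311 UMIs, came second to Wfdc18 and was highest in R10, and the protease inhibitor Slpi, with 5841, was highest in R1. Of 16 BPI fold genes in the files, 13 had at least 100 UMIs. Pltp, a plasma phospholipid transfer protein highest in cTEC-like R7, had 35493, and Bpifb1, a large airway relative, had 855. All 16 S100 genes listed in the files had at least 100 UMIs, and 5 of them had more than S100a8, namely S100a11 (147466), S100a16 (100306), S100a14 (94389), S100a10 (64724) and S100a6 (60637). S100a7a, 10308 bases from S100a8, had 758 UMIs and like it was highest in R1. Mpo (1989) and Epx (963), next to Lpo, were highest in R1, not with Lpo. Pcp4l1 (4605) and Lxn (9564), the relatives of Pcp4 and Rarres1, were highest in R1 like these genes. So were many relatives of the other genes, such as Wfdc12, Bpifa5, Olfm1 and Myoc. Nothing is therefore read from a shared peak in R1.

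Between the libraries, the 8 genes differed little over all cells. Log2 ratios are irradiated over control, with 0.5 UMIs added, and their range joins the opposite ends of both intervals. At least 1.5-fold was taken as a difference of note, among genes with at least 100 UMIs over both libraries. None of the 8 genes was past this fold in either direction. Of the 16986 genes, 8.78% were that much lower and 1.61% that much higher. Pcp4 was nearest, with a log2 ratio of -0.53 (-0.61 to -0.46). S100a9 followed at 0.23 (0.15 to 0.30), Lpo at 0.17 (0.10 to 0.23) and Wfdc18 at 0.13 (0.12 to 0.15). S100a8 was at -0.12 (-0.16 to -0.07), Olfm4 at -0.08 (-0.14 to -0.02), Rarres1 at 0.05 (-0.04 to 0.15) and Bpifa1 at -0.03 (-0.09 to 0.02). The ranges of Bpifa1 and Rarres1 held 0. Leaving out the highest 1% of cells of each gene moved Pcp4 to -0.84 and Bpifa1 to -0.95, past the fold. Those cells held 60.0% of control and 67.6% of irradiated Pcp4 UMIs, and 92.1% and 95.8% of Bpifa1 UMIs. These 2 ratios thus describe only the smaller remainder. The thinned and cell-averaged ratios of S100a8 were 0.06 and 0.05. Those of S100a9 were 0.36 and 0.39, and those of Rarres1 0.24 and 0.21. With the lower limit set at 1000 detected genes per cell, the ratio of S100a9 was 0.06.

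The libraries differed in their mix of cells. R2 made up 12.8% of control and 9.65% of irradiated cells, and R10 2.94% and 1.87%, while dividing R4 made up 6.43% and 10.3% and R5 6.62% and 10.0%. R1 was at 17.0% and 16.1%. With every cluster given the same weight in both libraries, the log2 ratio was 0.56 for Bpifa1, 0.44 for S100a9, 0.29 for Rarres1, 0.08 for S100a8, 0.06 for Wfdc18, 0.04 for Lpo, -0.18 for Olfm4 and -0.27 for Pcp4. Bpifa1 moved most. Its value rests on the 3 cells in each library that held 50% of its UMIs.

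**Figure D4:**
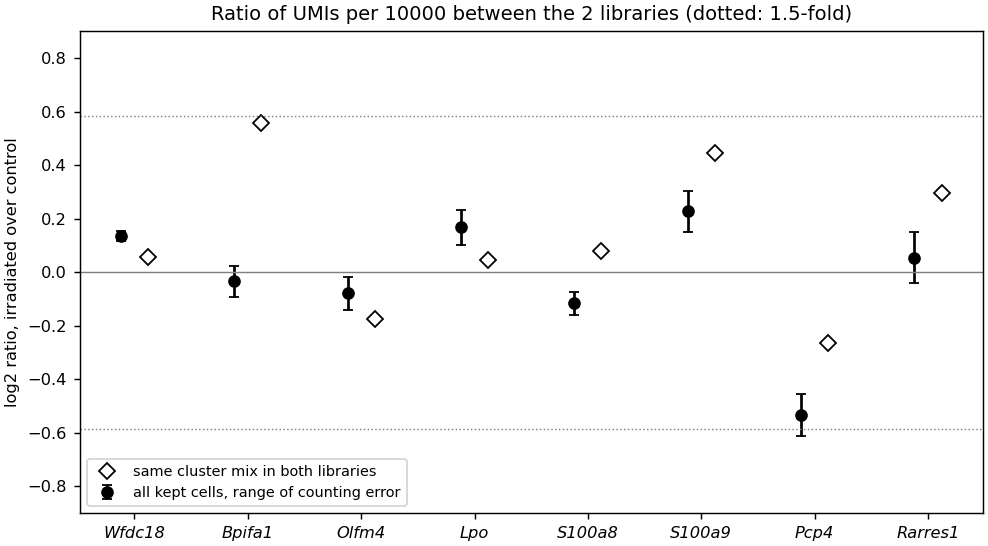
Log2 ratio of UMIs per 10000, irradiated over control, for each gene over all kept cells (filled circles, with the range from counting error) and with the same cluster mix in both libraries (open diamonds, no range computed). Dotted lines mark 1.5-fold, which no value passes, Pcp4 (-0.53) and Bpifa1 with the same mix (0.56) coming nearest.

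Inside single clusters, larger ratios were seen. Of 47 pairs of gene and cluster with 100 or more UMIs, in clusters of 50 or more cells per library, 6 pairs (12.8%) were at least 1.5-fold lower and 10 (21.3%) higher in the irradiated library. Over all genes, 3.33% of 95417 such pairs were lower and 2.34% higher. The genes had been picked for such ratios, so nothing is read from this. In R0, R5 and R6, none of the 2, 3 and 2 genes tested was past the fold. Of all genes, 2.47%, 2.11% and 2.74% were that much lower there, and 0.927%, 1.75% and 2.59% higher. None of the 8 genes was past it upward in R3 or R8, against 2.45% and 2.52% of all genes, or downward in R7 or R9, against 2.82% and 3.13%.

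By summed level, Wfdc18 differed in opposite directions in different mTECs. In enterocyte mimetic-like R2 it was at 19.1 (18.7 to 19.4) in the control and 7.56 (7.36 to 7.77) in the irradiated library. Its log2 ratio was -1.33 (-1.40 to -1.27). It was 1 of 8 genes past the fold downward there, against 4.06% of all genes. In tuft-like R9 it was at 24.7 (24.0 to 25.3) and 43.3 (42.4 to 44.3). The log2 ratio was 0.81 (0.74 to 0.88), against 1.94% of all genes that far up. In cTEC-like R7 it was at 4.12 and 7.05, a log2 ratio of 0.77 (0.64 to 0.91), against 2.05%. In R5, its main cluster, it was at 46.4 and 52.4, and in R6 at 32.2 and 43.4 (log2 ratio 0.43). R0, R1, R4 and R8 had log2 ratios between -0.08 and 0.09, R10 was at -0.13 and R3 at 0.23. Without the 5 cells with the most Wfdc18 in each library, the ratios were -1.36 in R2, 0.96 in R9 and 1.35 in R7. They moved past the fold in R8, to 0.66, and in R10, to -0.59. R0, R1, R3, R4, R5 and R6 stayed inside the fold, R6 at 0.52. The number left out was 5 whatever the size of the library. It was a larger share of control than of irradiated cells in R8 (136 and 284 cells) and R7 (151 and 356). The part of this unequal share in the shifts was not tested.

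**Figure D5:**
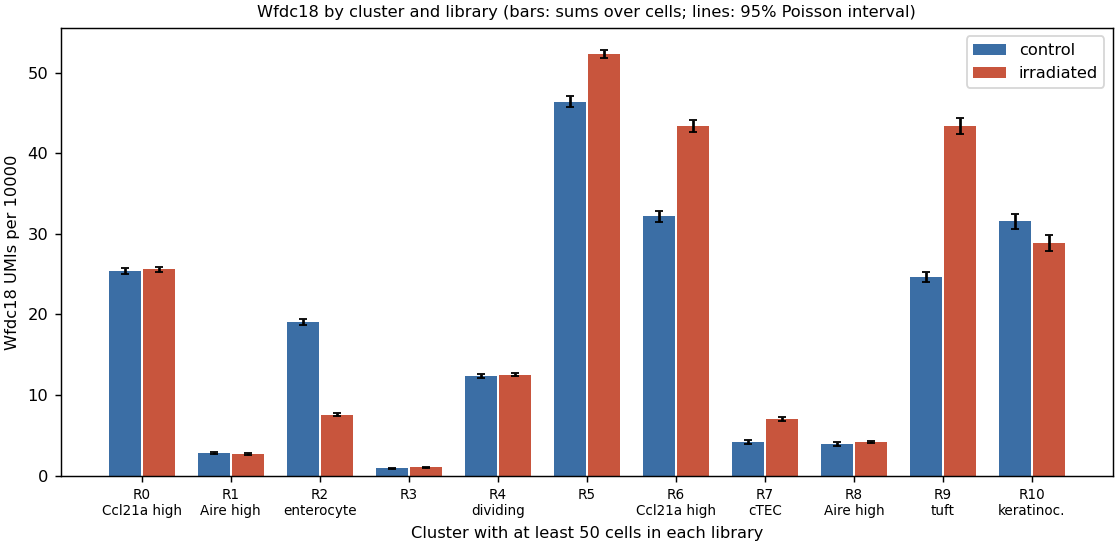
Wfdc18 UMIs per 10000 (vertical axis, from 0) in the 11 clusters that held 50 or more cells from both the control and the irradiated mice, control (blue) beside irradiated (red), with exact Poisson 95% intervals. The bars part most in R2 (19.1 and 7.56) and in R9 (24.7 and 43.3).

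R2 also contained cells with genes of microfold cells, the antigen-sampling cells of gut epithelium, among which Ccl9 is listed. The 8 listed microfold genes were together at 21.1 in the control and 22.1 in the irradiated cells of R2, and the 9 enterocyte genes at 33.2 and 31.6. R2 was therefore split by UMIs of the microfold genes after thinning, with limits chosen after seeing the data. In cells with 10 or more such UMIs, Wfdc18 was at 47.5 (44.8 to 50.4) in 59 control cells and 20.5 (18.8 to 22.2) in 72 irradiated cells. In cells with 3 to 9 it was at 14.04 and 6.44, in cells with 1 to 2 at 18.0 and 7.28, and in cells with none at 7.18 and 4.19. Wfdc18 was lower in the irradiated library in each of the 4 groups. The highest group made up 14.2% of control and 14.7% of irradiated R2 cells. In R2 as a whole, 13 control and 14 irradiated cells held 50% of the Wfdc18 UMIs. The part of the mix of cells in the R2 ratio was not tested. In R9 the same split gave 6.91 and 40.6 in cells with no microfold UMI, 25.7 and 38.8 with 1 to 2, and 17.4 and 42.3 with 3 to 9. In the 5 control and 4 irradiated R9 cells with 10 or more it was at 80 (68.1 to 93.4) and 82.5 (69.0 to 97.8), with overlapping intervals.

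Bpifa1 and the S100 genes stood higher in keratinocyte mimetic-like R10 of the irradiated library, but on few cells. Bpifa1 was at 46.7 and 79.4, Olfm4 at 0.492 and 0.844, S100a8 at 0.686 and 1.19, and S100a9 at 0.224 and 1.54. These are 4 of 7 genes past the fold upward, against 4.63% of all genes, and Pcp4, at 1.77 and 0.707, was past it downward, against 6.09%. R10 had 95 cells in each library. In each library 1 to 4 cells held 50% of the UMIs of each of these 5 genes. Without the 5 highest cells the ratios of Bpifa1, Olfm4 and Pcp4 changed sign, to -0.14, -0.33 and 1.18, while those of S100a8 and S100a9 were 2.37 and 1.98. Except for Bpifa1, these rest on few UMIs, with 19 control and 14 irradiated for Olfm4, 5 and 11 for Pcp4, 5 and 26 for S100a8, and 10 and 38 for S100a9. The listed keratinocyte genes were at 91.7 and 58.6 in R10, and the neutrophil list at 3.10 and 7.92. Their part in these ratios was not tested.

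Rarres1 and S100a9 were higher in irradiated R2. Rarres1 was at 0.454 (0.404 to 0.508) and 1.08 (1.00 to 1.16). The log2 ratio was 1.25 (0.98 to 1.52), and its cells made up 9.16% (6.56 to 12.4) of the control and 15.5% (12.4 to 19.1) of the irradiated R2 cells after thinning. S100a9 was at 0.261 and 0.488, a log2 ratio of 0.90 (0.53 to 1.28), with 4.34% and 3.68% of cells. These are 2 of 8 genes past the fold upward in R2, against 2.21% of all genes. Without the 5 highest cells the ratios were 1.35 and 1.505. Rarres1 was at 0.89 with a mitochondrial share under 10%, 0.75 under 6000 detected genes and 0.90 merged without integration. Its other changes of filter or clustering gave 1.08 to 1.28. For S100a9, 3 control and 5 irradiated cells held 50% of the UMIs in R2. R2 also had Aire at 4.80, and the part of the mix of cells in these ratios was not tested.

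In R1, where S100a8, S100a9, Pcp4 and Rarres1 had most of their UMIs, none of the 8 genes was past the fold, against 6.1% of all genes downward and 2.91% upward. S100a8 was at 11.9 and 12.8, S100a9 at 3.69 and 4.89, Pcp4 at 3.42 and 2.99, and Rarres1 at 2.28 and 2.44. The ratio of S100a9, 0.40 (0.32 to 0.48), was the largest of these. After thinning, S100a8 was found in 42.9% (38.7 to 47.1) and 48.0% (44.6 to 51.5) of R1 cells and S100a9 in 26.5% (22.8 to 30.4) and 30.6% (27.4 to 33.8), with overlapping intervals.

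In dividing R4, S100a8 was at 0.723 and 0.460, past the fold downward as 1 of 5 genes against 1.38% of all genes. S100a9 was at 0.0115 and 0.0961, on 7 and 123 UMIs, past it upward against 2.67%. The S100a8 ratio of -0.65 became 0.24 without the 5 highest cells of each library. These 5 were a larger share of control than of irradiated cells in R4 (208 and 521 cells), R7 and R8. In Aire-high R8, S100a9 at 0.393 and 0.113 and Pcp4 at 0.225 and 0.0749 were 2 of 6 genes past the fold downward, against 2.91%. Without the 5 highest cells the log2 ratios were -0.18, on 10 control and 15 irradiated UMIs, and 1.13, on 1 and 5 UMIs, too few to give a direction. Pcp4 in R3, at 0.248 and 0.142, was 1 of 2 genes past the fold downward, against 2.76%, and its ratio without these cells was -1.40. Lpo in R7, at 0.370 and 0.629 with a log2 ratio of 0.76 (0.31 to 1.22), was past the fold upward together with Wfdc18, and was 1.00 without them. The part of free RNA in the R7 ratios of both genes was not tested.

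Near-identical sequence could affect the counts of 2 genes. Of the 1082 different runs of 31 bases in Pcp4 transcripts, 215 were also found in transcripts of Igsf5, a neighbour with 81 UMIs, and of the 2955 of Olfm4, 124 were found in Gm6999. The other 6 genes had no run in common with another gene.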

How the data were processed

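The deposited files hold raw UMI counts per gene and cell barcode, made by the authors with Cell Ranger (5.0.1 in the file headers, 5.1 in the labels) on the mouse genome mm10. The 8 genes and all gene lists were chosen with earlier results of these data known. Cells with over 2000 and under 7500 detected genes and a mitochondrial share under 15% were kept, as in the study. No doublet caller was run here. Libraries were integrated and clustered with Seurat 5.3.0 (R 4.3.3, 3000 variable genes, 20 principal components, resolution 0.5) without the 8 genes. Levels and shares were computed with Python 3.11.15 and scipy 1.17.1, and the ratio code was tested on simulated counts. With 1 library per condition, no test between conditions was made. Genes named are the 8, their families, the marker lists, the 3 genes most alike over clusters, the 5 leading genes of the highest cells and the 10 leading genes of clusters. Alternatives changed the cell filters, thinning, averaging, denominator, highest cells and clustering. GENCODE vM21 gave positions and RefSeq (GRCm38.p6) the promoters.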

Additional observations from a re-analysis of the deposited data

Results flagged for a closer look

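Wfdc18 stood out because its log2 ratio of irradiated over control had opposite signs in 2 clusters, -1.33 in enterocyte mimetic-like R2 and 0.81 in tuft-like R9. S100a8 did so with -0.65 in dividing R4 and 0.79 in keratinocyte mimetic-like R10, and the value in R4 was 0.24 without the 5 highest cells. S100a9 did so with -1.79 in Aire-high R8 and 2.98 in R4, where the control had 7 UMIs. Its value in R8 was -0.18 without the 5 highest cells. Its value in R4 was 1.04 under 6000 detected genes and 2.86 to 3.09 with the other changes of filter or clustering. In each case the difference between the clusters was not tested, since each condition is 1 library.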

How the results depend on the processing

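No paired analysis was possible because each condition is 1 library, and for the same reason no replicate could be left out. Leaving out the highest 1% of cells of each gene put 2 of the 8 genes, Pcp4 and Bpifa1, at least 1.5-fold lower in the irradiated library, against 0. With all kept cells, 8.78% of 16986 genes were that much lower. No such share is given without the highest cells, which held most UMIs of both genes, so nothing is read from the count. With a mitochondrial share under 10%, 5 of 8 genes kept their highest cluster, against 6 to 8 under the other settings. R10, the highest cluster of Bpifa1, had no match under that filter. The share of all genes that kept their highest cluster is not given, so nothing is read from these counts. Leaving out the 5 highest cells, an alternative chosen after seeing the data, turned the log2 ratios of Bpifa1 (-0.14), Olfm4 (-0.33) and Pcp4 (1.18) in R10, Pcp4 in R8 (1.13) and S100a8 in R4 (0.24). The value of Pcp4 in R8 rests on 1 control and 5 irradiated UMIs and that in R10 on 5 and 11. In R4 and R8 the 5 cells were a larger share of control than of irradiated cells, and the part of this was not tested. Requiring at least 1000 detected genes turned Olfm4 in R10 (-0.14). Under 6000 detected genes, Olfm4 in R10 (-0.95), Pcp4 in R10 (1.65) and S100a8 in R4 (0.50) turned. Merging without integration turned Olfm4 (-0.86) and Pcp4 (0.94) in R10, and keeping the 8 genes in the clustering turned Pcp4 in R10 (1.46). Over all kept cells, S100a8 turned with a mean over cells (0.046) and with thinning (0.057). Bpifa1 over all kept cells, whose range held 0, was at 0.29 with a mitochondrial share under 10% and 0.03 with thinning. The causes were not tested. At resolution 0.3 no cluster matched R8 or R10, and with a mitochondrial share under 10% none matched R10, so those ratios have no value there. Of 228 alternative log2 ratios, 157 fell inside a tolerance around the reported value, 57 fell outside it, and 14 changed sign where it excluded 0. The tolerance was the counting range. For ratios with the same cluster mix, which have no range of their own, the width of the gene's range over all kept cells was used. The number of cells and the single library per condition limit every ratio, most of all in R10.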

Other observations

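The barcodes left out by the filters, 1704 in the control and 2097 in the irradiated library, also held UMIs of the 8 genes. Wfdc18 was at 9.01 and 8.84 per 10000 there, S100a9 at 1.28 and 0.590, and Rarres1 at 0.165 and 0.527.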
